A study of Mus musculus with 5 samples.

Results

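Enteric glia are the supporting cells of the nerve plexuses in the gut wall, and 8 genes that mark them were followed in whole colon: Gfap, S100b, Sox10, Foxd3, Erbb3, Ngfr, Entpd2 and Fabp7. All probes of these genes were taken, which gave 9 of the 56605 probes on the array, with 2 probes for Gfap and 1 for each other gene. The set was chosen by its measured difference between NT-3N and Control, in which Gfap stood out and was set against other glial genes, so the values of the 8 genes in this comparison are given as a description with no test. Of the 8 genes, 7 passed the filter on dim signal and entered the table of 32917 features, of which 17941 carried a gene symbol. Fabp7, a fatty acid binding protein of glial precursors, was not well above background on any of the 5 arrays.

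RNA of whole colon was hybridised to 5 one-colour arrays, 1 array for each mouse. There were 2 Control and 3 NT-3N mice, all of the strain labelled C57BL/B6, and no transgene or deletion is named for either group. The injected mice were wild-type and 8-week-old, and the age of the Control mice was not given in the sources used here. NT-3N, an IL-11 receptor agonist derived from human IL-11, was injected intravenously and the colon was taken 3 hr later. The labels give no injection or vehicle for the Control mice, and the paper calls them untreated, so the injection and the agonist cannot be told apart. The sources differ on the unit of the dose, which is therefore not given. The arrays shared 1 slide, scanned once. Per array, 70.6% to 72.9% of probes gave a signal well above background, with 0 saturated spots.

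Glia of the gut arise from the neural crest and wrap the neurons and fibres of the myenteric and submucosal plexuses. They keep the crest factors Sox10 and Foxd3 and the receptors Erbb3 and Ngfr, and mature glia hold the calcium-binding protein S100b and the ectonucleotidase Entpd2. GFAP, the intermediate filament protein of astrocytes, is present in a part of enteric glia and is the usual sign of a reactive state in astrocytes, where its gene responds to cytokines of the gp130 family through STAT3. IL-11 is a member of that family. Whole colon is a mixture, and in such samples fewer glia and less RNA per glial cell cannot be told apart.

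The promoter of Gfap is shown because Gfap was the glial gene that was higher after NT-3N, and that of S100b because it is the marker most often used beside it. Both are RefSeq windows of 300 bases on GRCm38.p6, from 250 bases before to 50 bases after the annotated start, written 5′ to 3′ on the strand of the gene. Capitals mark the letters TTCNNNGAA, the core that STAT factors bind, or ACAANG, a core of SOX factors, each searched on both strands, and the motifs did not overlap each other in these windows. The Gfap window is chr11:102897151-102897450 on the minus strand and the S100b window chr10:76253586-76253885 on the plus strand.
Gfap promoter: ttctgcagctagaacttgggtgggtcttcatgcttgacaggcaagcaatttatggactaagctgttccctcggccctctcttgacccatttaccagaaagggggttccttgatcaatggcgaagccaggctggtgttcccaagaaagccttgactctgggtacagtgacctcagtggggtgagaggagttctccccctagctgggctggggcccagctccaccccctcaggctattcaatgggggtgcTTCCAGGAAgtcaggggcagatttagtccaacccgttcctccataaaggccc
S100b promoter: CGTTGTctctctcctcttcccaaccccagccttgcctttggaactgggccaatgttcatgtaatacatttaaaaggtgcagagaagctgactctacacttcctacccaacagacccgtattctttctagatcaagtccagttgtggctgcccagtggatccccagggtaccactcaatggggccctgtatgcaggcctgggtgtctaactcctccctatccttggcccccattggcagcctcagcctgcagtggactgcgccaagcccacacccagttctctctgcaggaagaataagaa
The Gfap window held 1 STAT core, TTCCAGGAA, which began at position -2, counted from the annotated start with no position 0. Of all 32851 promoter windows, 8.3% held this motif and 41.2% held the SOX core. Windows were found for 6 of the 8 genes. Of these, S100b and Fabp7 had 1 match to the SOX core each, and no letters of either motif stood in the windows of Foxd3, Ngfr and Entpd2. A match in a window is a description of letters and says nothing of binding.

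Gfap was 3.58-fold higher in NT-3N than in Control by its brighter probe, annotated to transcript NM_010277. Its log2 signal, on the scale of quantile-normalized processed signal, was 6.97 and 6.77 in the Control arrays and 8.83, 8.65 and 8.66 in the NT-3N arrays. All 3 NT-3N arrays lay above both Control arrays, and the NT-3N arrays lay within 0.18 of each other on this scale. The group means were 6.87 ± 0.14 (SD, n = 2) and 8.71 ± 0.10 (SD, n = 3), a log2 difference of 1.84 with a standard error of 0.13. By size of the rise Gfap stood at rank 135 of the 32917 features.

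The second Gfap probe, annotated to the RefSeq transcript NM_001131020 of the same gene, differed in the same direction. Its log2 signal was 6.23 and 6.22 in Control and 8.58, 8.60 and 8.54 in NT-3N, so the groups again did not overlap. The log2 difference was 2.35 with a standard error of 0.11, or 5.09-fold, and exceeded that of the first probe by 0.51. Which exons each probe reads was not analysed here.

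**Figure D1:**
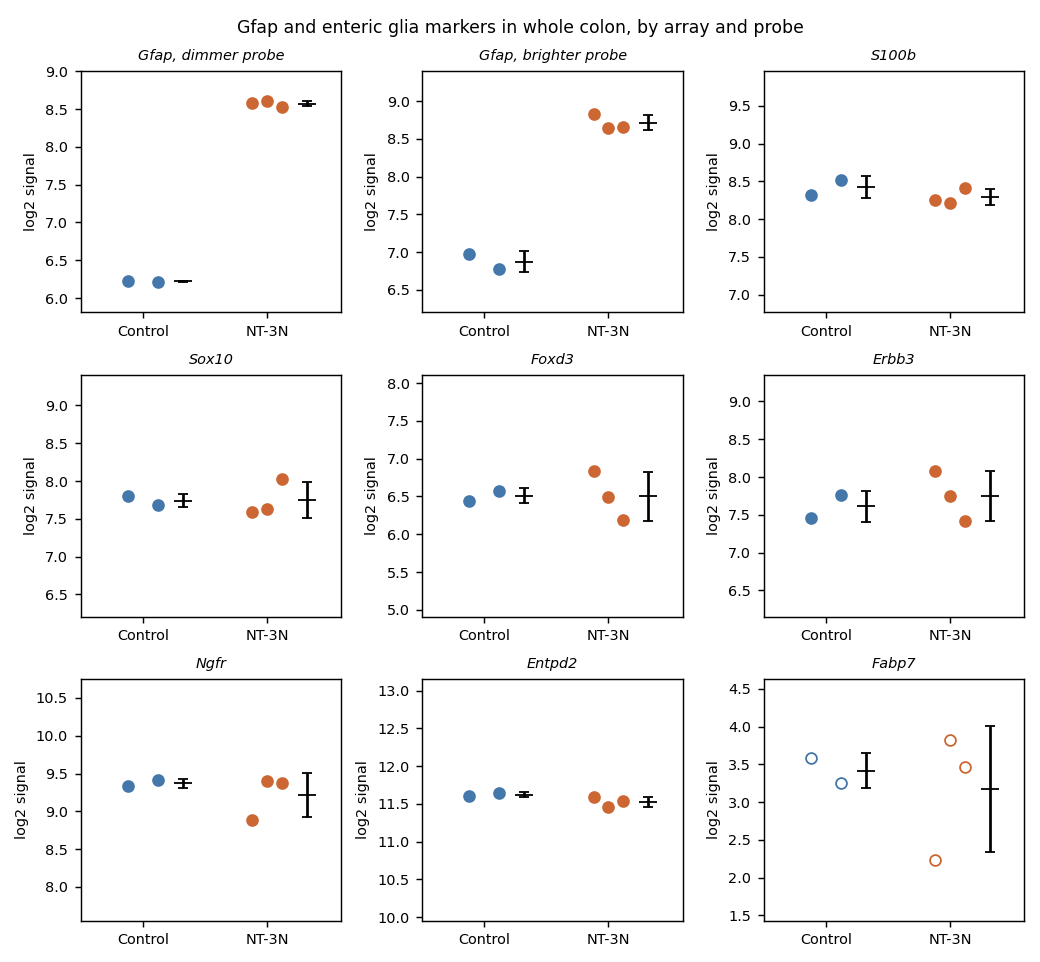
Log2 signal (y axis, a span of 3.2 log2 units in every panel) of each probe of the 8 genes in 2 Control and 3 NT-3N arrays. Points are single arrays, filled where the probe was well above background, and the black bars are group means with their SD. The NT-3N points lie above the Control points for both Gfap probes, while the other well-measured probes stay near their Control level and all Fabp7 points are open.

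None of the other 6 glia markers that were tested came near this size. Their log2 differences lay between -0.15 and 0.14, with a median of -0.05 beside -0.02 over all features, and 2 were positive and 4 negative. The widest of these differences, in either direction, was 1.11-fold. The standard errors ran from 0.086 to 0.22.

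Of the neural crest transcription factors, Sox10, which keeps glial identity, gave log2 signals of 7.80 and 7.68 in Control and 7.59, 7.63 and 8.02 in NT-3N. The NT-3N arrays spanned the Control arrays, and the log2 difference was 0.01 with a standard error of 0.17. Foxd3, which acts in crest progenitors, gave 6.44 and 6.58 in Control and 6.84, 6.49 and 6.19 in NT-3N. Its highest and its lowest array were both NT-3N arrays, and the difference was -0.01 on the log2 scale with a standard error of 0.22.

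Of the receptors, Erbb3, the neuregulin receptor subunit on which crest-derived glia depend, gave 7.46 and 7.76 in Control and 8.08, 7.75 and 7.42 in NT-3N. The groups overlapped and the log2 difference was 0.14 with a standard error of 0.22. Ngfr, the p75 receptor of neurotrophins, gave 9.33 and 9.42 in Control and 8.89, 9.40 and 9.37 in NT-3N. Here NT-3N replicate 1 alone lay low, and the log2 difference of -0.15 had a standard error of 0.18.

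Of the genes of mature glia, S100b gave log2 signals of 8.32 and 8.52 in Control and 8.25, 8.21 and 8.42 in NT-3N, with overlap and a log2 difference of -0.13 and a standard error of 0.13. Entpd2, which splits extracellular ATP, gave 11.60 and 11.64 in Control and 11.59, 11.46 and 11.54 in NT-3N. Its NT-3N arrays all lay just below the Control arrays, by a mean log2 difference of -0.09 with a standard error of 0.086. Such a lack of overlap, in either direction, was seen in 28.4% of all features and in Gfap and Entpd2 among the 7 tested genes.

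Set against its fellow markers within each array, Gfap moved as much as it did alone. Log2 Gfap minus the mean log2 of the other 6 tested markers was -1.52 and -1.83 in the Control arrays and 0.29, 0.16 and 0.17 in the NT-3N arrays. The group means of this quantity were -1.67 ± 0.21 (SD, n = 2) and 0.21 ± 0.074 (SD, n = 3), 1.88 apart, while the mean of the 6 markers alone was 8.55 ± 0.076 in Control and 8.51 ± 0.029 in NT-3N. Over all features limma called 47 at an adjusted p under 0.05, which is 0.143% of those tested, and because this contrast was part of the choice of the genes, no call is given for the 8. The number over all features varied with the arrays used: limma called 31 features without Control replicate 1, 118 without Control replicate 2, 87 without NT-3N replicate 1, 10 without NT-3N replicate 2 and 0 without NT-3N replicate 3, the last with 2384 at an unadjusted p under 0.05.

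The 6 markers also differed among themselves in how they varied over the arrays. Likeness was measured as the root mean square difference between log2 profiles, each centred on its mean over the 5 arrays. Foxd3 and Erbb3 were close, at 0.09, both highest in NT-3N replicate 1 and lowest in NT-3N replicate 3. S100b and Entpd2 were also close, at 0.089. Erbb3 and Ngfr were the least alike of the 6, at 0.41, since NT-3N replicate 1 was the highest array for the one and the lowest for the other. Gfap stood at 0.86 to 1.01 from each of them. In colon Erbb3 is also made by the epithelium and S100b by some adipocytes and immune cells.

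The genes most like Gfap over the 5 arrays stood on none of the glial lists. Among 16733 other named genes well above background on every array, the 5 with the smallest such difference from Gfap were Lbp at 0.056, Ctps at 0.098, Kcne4 at 0.13, Gpr146 at 0.14 and Lrg1 at 0.16. Lbp encodes the lipopolysaccharide binding protein and Lrg1 a secreted glycoprotein of the acute phase. Lbp gave log2 signals of 6.59 and 6.39 in Control and 8.33, 8.31 and 8.24 in NT-3N. The measure counts all 5 arrays, so the like gap between the Control arrays was part of how Lbp was picked. By the same measure Erbb3, the nearest of the glia markers, stood at rank 4277 and Ngfr, the farthest, at rank 13168. The 5 genes most like Sox10 were Zfp142, Fbxo42, Cep128, Serf1 and Ric8b, at 0.024 to 0.037, and S100b stood at rank 3152. Profiles over 5 arrays are few points, and flat genes lie close to one another by this measure. It keeps the size of a difference, so genes without a rise of the size of Gfap's lie far from Gfap by construction.

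**Figure D2:**
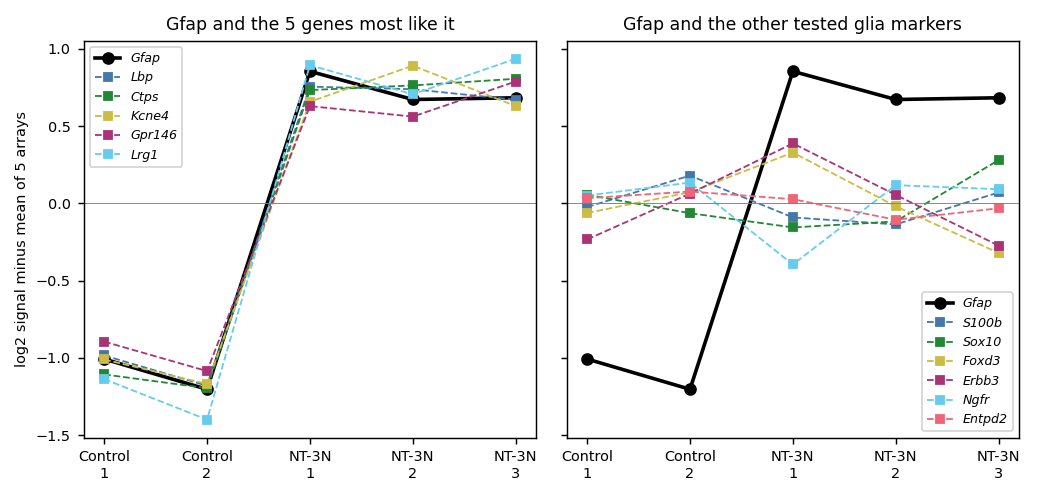
Log2 signal minus the mean of the 5 arrays (y axis) for each array (x axis), with lines joining the values of 1 gene. On the left Gfap and the 5 genes most like it go from about -1 in Control to above 0.5 in NT-3N together, and on the right the 6 other tested glia markers stay within 0.4 of their means.

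To see whether glial genes outside the chosen 8 differed, a list of 24 further genes known from enteric glia and related peripheral glia was tested. All 24 were measured and limma called 0 of them over all features, where 0.125% of features were called higher and 0.0182% lower. At an unadjusted p under 0.05, 1 was higher and 6 lower, where 4.95% and 4.67% of all features were. The median log2 difference was -0.12 and 17 of 24 values were negative, as were 53.6% of all features. Of the 24 genes 7 lay below Control on every NT-3N array, beside 14.8% of all features. Gap43, the growth-associated protein of crest-derived glia and growing axons, differed by -0.12 with a standard error of 0.20, and its NT-3N replicate 1 was the lowest array. Gfra3 (log2 difference 0.03), Cdh19 (-0.11) and Ednrb (-0.04), all known from peripheral glia or the crest, had overlapping groups.

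The widest difference in this list was that of Kcna1, a voltage-gated potassium channel subunit. Its log2 signal was 7.85 and 7.84 in Control and 6.60, 6.35 and 6.69 in NT-3N. The NT-3N arrays all lay below Control by 2.45-fold on average, with a limma adjusted p of 0.062 that ranged from 0.031 with array quality weights to 0.49 over the alternatives. The next were Cmtm5 with a log2 difference of -0.86, Cryab with -0.69 and Ptprz1 with -0.64, and Sostdc1, an antagonist of BMP and WNT signals, was the highest with 0.67, all with adjusted p between 0.17 and 0.48 in limma. The difference of Sostdc1 was 0.29 with normexp background correction, and that of Ptprz1 was -0.40 without Control replicate 2. Cryab, a small heat shock protein, is also strong in muscle. The summed signal of 6 smooth muscle markers lay between 318502 and 404806 in NT-3N and between 432279 and 445504 in Control, with all 6 lower on average, as were 53.6% of all features, and 5 of 6 below Control on every NT-3N array, beside 14.8% of all features. The part of muscle content in the values of Cryab and Kcna1 was not tested.

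A different picture came from 12 genes that astrocytes of the brain switch on together with Gfap when they become reactive. All were measured, and limma called 3 of them, all higher in NT-3N, where 0.125% of all features were called in this direction. The median log2 difference of the list was 0.58, 9 of 12 were positive, and 7 lay above Control on every NT-3N array, as did 13.5% of all features. Serpina3n, a serine protease inhibitor, gave log2 signals of 7.36 and 7.32 in Control and 10.53, 10.83 and 10.66 in NT-3N, a log2 difference of 3.33 with a limma adjusted p of 0.0027. Osmr, a receptor subunit for oncostatin M, differed by 2.09 with an adjusted p of 0.0057, and Timp1, an inhibitor of metalloproteinases, by 1.66 with 0.012. These 3 were known to be higher from earlier results of these data, and each is made by fibroblasts or other cells of the colon as well, so their list is no independent sign of a glial state. Over the 16 alternatives the median of the list ranged from 0.47 with array quality weights to 0.88 without Control replicate 2. The number called was 0 without NT-3N replicate 3 and 2, without Timp1, when either Control replicate 1 or NT-3N replicate 2 was left out.

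The rest of the reactive list was mixed. Steap4, a metalloreductase, gave log2 signals of 4.71 and 4.74 in Control and 7.27, 6.53 and 6.23 in NT-3N, a log2 difference of 1.95 that did not pass over all features (limma adjusted p = 0.13). It was called with array quality weights and with the local-pooled-error test, in a range of adjusted p from 0.016 to 0.50, and its difference was 0.91 with normexp. Lcn2, the iron carrier lipocalin 2, differed by 1.03 and S1pr3, a sphingosine phosphate receptor, by 0.62, with all NT-3N arrays above Control and limma adjusted p of 0.27 and 0.24. Cp (0.35), Cxcl10 (0.53) and Hspb1 (0.26) were higher on the log2 scale by less, while Cd44 (-0.21), Aspg (-0.25) and Vim (-0.02) were not higher.

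Gfap was also unlike the other intermediate filament genes. Of 9 filament genes of glia, neurons, muscle and mesenchyme, limma called 0, with 0 higher and 1 lower at an unadjusted p under 0.05, where 4.95% and 4.67% of all features were, and the local-pooled-error test also called 0. Of the 9, 8 were lower, beside 53.6% of all features. Their median log2 difference was -0.27. Leaving out 1 array moved it between -0.39 (NT-3N replicate 2) and -0.17 (Control replicate 2), and it was -0.18 without NT-3N replicate 1. Vim, which encodes vimentin and is made together with Gfap in astrocytes, gave 12.80 and 12.65 in Control and 12.47, 12.71 and 12.94 in NT-3N, with overlap. Nes, which encodes nestin, differed by -0.48 (limma adjusted p = 0.38) and Des, the desmin gene of muscle, by -0.40 (0.53), both with NT-3N below Control on every array. In 8 of the 9 genes NT-3N replicate 1 was the lowest array, which was so in 25.6% of all features.

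**Figure D3:**
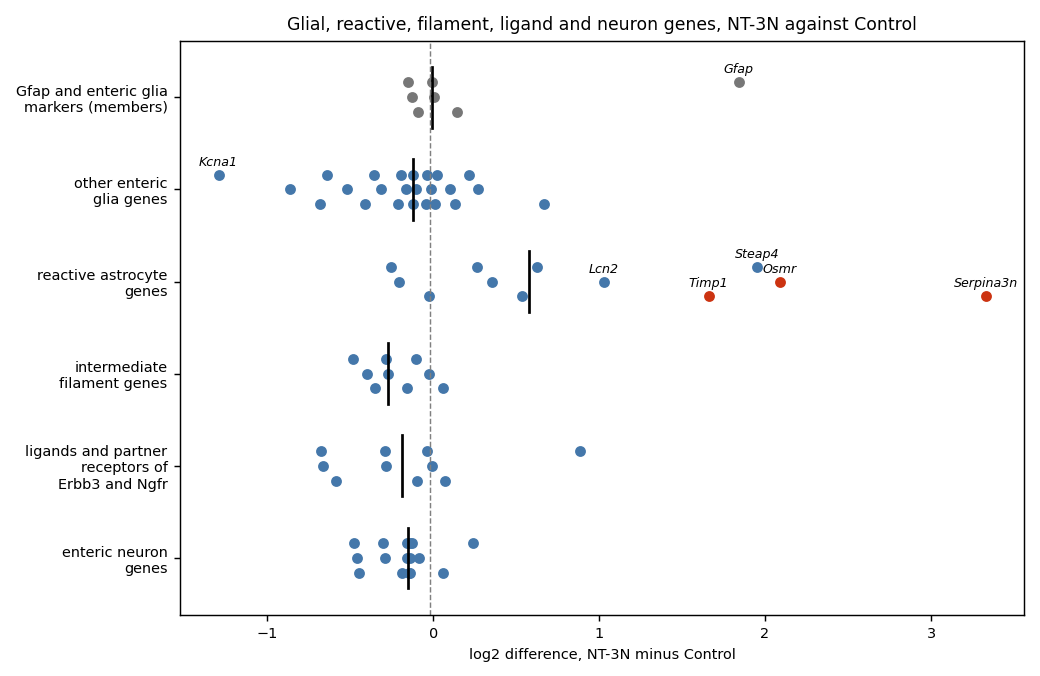
Log2 difference between NT-3N and Control (x axis) for the tested glia markers, in grey and not tested here, and for 5 gene lists, in red where limma called the gene and in blue otherwise. Black bars are medians and the dashed line is the median of all features; points are spread vertically to be seen. Serpina3n, Osmr, Steap4, Gfap and Timp1 lie far to the right, Steap4 in blue since it was not called, and the medians of the other glial, filament, ligand and neuron genes lie left of the dashed line.

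The ligands and partner receptors of Erbb3 and Ngfr were followed as the signals that reach glia. Of 12 genes 10 were tested, limma and the local-pooled-error test called 0, and 1 was higher and 2 lower at an unadjusted p under 0.05, where 4.95% and 4.67% of all features were. The others did not pass the filter on dim signal. Nrg1, the main glial ligand of Erbb3, differed by 0.07 on the log2 scale and its partner receptor Erbb2 by -0.01. Among neurotrophins Bdnf gave log2 signals of 4.49 and 4.24 in Control and 4.93, 5.38 and 5.42 in NT-3N, a log2 difference of 0.88 (limma adjusted p = 0.38) that was 0.34 with normexp. Nrg2 (-0.68) and the neurotrophin receptor Ntrk3 (-0.58) lay below Control on every NT-3N array, with limma adjusted p of 0.36 and 0.48. These are values of the brightest probe: with the mean of the probes of each gene the log2 differences were -0.22 for both, and with normexp -0.40 for Nrg2 and -0.38 for Ntrk3. That of Ntrk3 was -0.36 without Control replicate 2.

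Enteric neurons share the plexuses with glia, and 16 of their genes were measured beside them. Limma and the local-pooled-error test called 0, with 0 at an unadjusted limma p under 0.05, and 14 of 16 were lower, beside 53.6% of all features. The median log2 difference was -0.15. Leaving out 1 array moved it to -0.075 (NT-3N replicate 1), -0.23 (Control replicate 1) or -0.34 (NT-3N replicate 3). NT-3N replicate 1 was the lowest array in 13 of the 16, beside 25.6% of all features. The summed signal of 5 neuron markers, Uchl1 and Tubb3 among them, was 5851 in this array, 8668 and 9606 in the other NT-3N arrays, and 8828 and 10254 in Control. In the same array Ngfr and Gap43 were low and both Gfap probes were not, the brighter one being at its highest there. Without that array the log2 difference of Gfap was 1.78 and that of Ngfr 0.01.

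The labelled tissue held glial RNA in both groups. Of 10 enteric glia markers, the 8 genes among them, 9 were well above background on all 5 arrays, all but Fabp7, and their summed signal was 5134 to 5326 in Control and 5065 to 5387 in NT-3N. A sum is led by its brightest probes, and the mean log2 signal of the 9 markers, Gfap among them, did not overlap, at 7.90 and 7.95 in Control and 8.15, 8.05 and 8.04 in NT-3N. Summed signals of the other cell types also overlapped between the groups, except for smooth muscle. The mean log2 signal of 5 markers of myelinating Schwann cells did not, at 9.76 and 9.55 in Control and 9.86, 10.03 and 9.91 in NT-3N. Most of this came from Egr2, with a log2 difference of 1.16 (limma adjusted p = 0.27). Those of Mbp (-0.14), Prx (0.17), Mag (0.22) and Pmp22 (0.005) were small. Adipocyte markers varied most between arrays, from 7807 to 22779 in Control and from 4124 to 16363 in NT-3N, with 5 of 6 markers well above background on every array. Ranges were 422783 to 446529 and 400479 to 452055 for epithelium, 7863 to 8435 and 6696 to 9489 for macrophages, 1159 to 1176 and 1126 to 1317 for endothelium, 48088 to 57511 and 48816 to 55243 for myelinating Schwann cells, and 13418 to 17611 and 13616 to 22182 for 5 genes that mark astrocytes in brain, in Control and NT-3N respectively. The part of these in the values of Gfap was not tested.

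**Figure D4:**
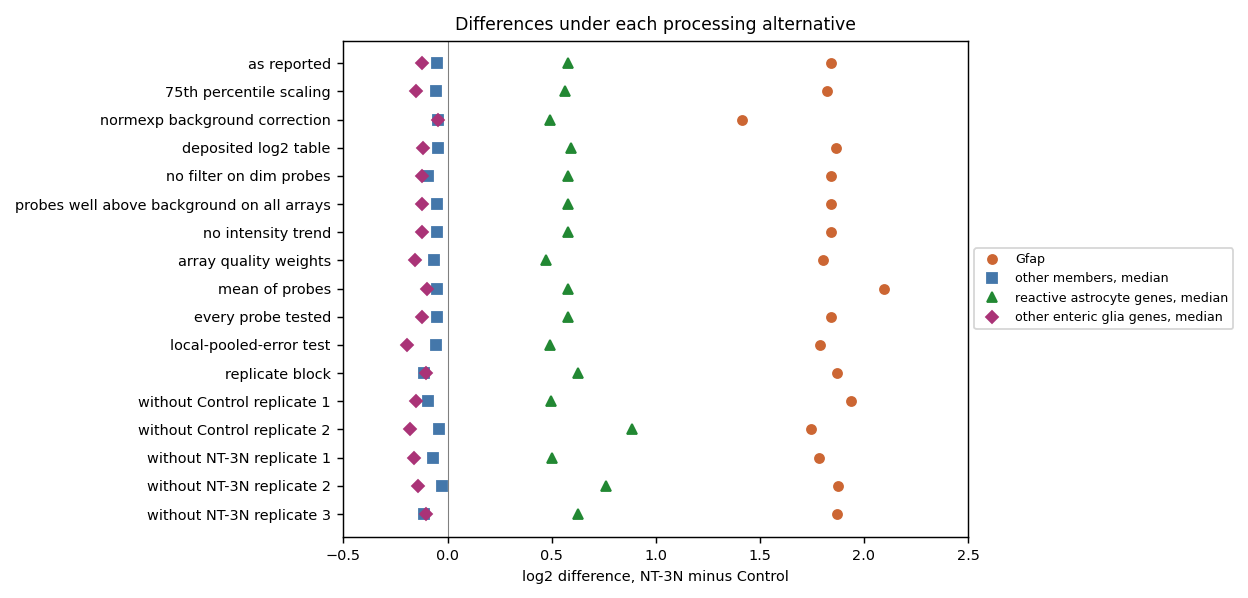
Log2 difference between NT-3N and Control (x axis) under each processing alternative (y axis) for Gfap and for the medians of the other glia markers and of 2 lists. Gfap stays between 1.42 and 2.09 and the median of the other markers between -0.11 and -0.03.

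Over 16 alternatives the log2 difference of Gfap ranged from 1.42 with normexp background correction to 2.09 with the mean of its 2 probes. The median of the other markers stayed between -0.11 and -0.03 over the same alternatives.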

How the data were processed

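Whole-colon RNA of 2 Control and 3 NT-3N mice was measured on SurePrint G3 Mouse Gene Expression 8x60K arrays. The authors extracted the spots with Agilent Feature Extraction 11.0.1.1, and the deposited scanner files give a background-subtracted, detrended intensity that was not scaled between arrays. The authors also deposited log2 values, quantile-normalized, for 37380 probes, used here as an alternative. Control spots and 69 to 184 outlier spots per array were left out, spots of 1 probe were averaged on the log2 scale, and quantile normalization was applied across arrays. Probes entered the tests if at least 2 arrays flagged them well above background and if both Control and at least 2 NT-3N arrays had values. Accessions matched a RefSeq table of GRCm38.p6 for 32989 of 56605 probes; the array design refers to another build, so no array coordinates are given. A gene was represented by its brightest probe. Summed marker signals are sums of normalized signal over the tested markers.

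NT-3N was compared with Control in limma 3.58.1 under R 4.3.3 (lmFit, eBayes with an intensity trend, two-sided, Benjamini-Hochberg over all features, threshold 0.05). The local-pooled-error test of the study's methods, written here from how it was published, served as an alternative. An exact permutation test of 5 arrays cannot pass the threshold, so none is given, and the number of arrays limits the precision. The tests were checked on simulated data. The members and the gene lists were chosen with earlier results of these data known. The rule named all 8 genes, every listed gene called, and the 5 genes nearest to Gfap and to Sox10. Alternatives covered scaling, background, source of values, filter, variance model, array weights, probe rule, test, replicate block and leaving out each array. Where an array was left out, features and probes were kept as in the fit of all arrays. Normexp (offset 50) used median spot signals. A few listed genes are counted but not reported here by name.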

Additional observations from a re-analysis of the deposited data

How the results depend on the processing

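All alternatives were planned. The 47 calls of limma became 2 with no filter on dim probes, 2 with no intensity trend, 170 with array quality weights and 348 with the local-pooled-error test, and ranged from 0 to 118 without each array in turn. No source says that a replicate number ties 2 mice together, and same-numbered arrays deviated from their group means with correlations of 0.13 and 0.036. With the replicate block limma called 0 features (2488 had an unadjusted p under 0.05) and 0 reactive astrocyte genes. NT-3N replicate 3 has no Control of its number, so this fit drops it and gave the same differences as the fit without that array, which by itself also called 0. The 3 called reactive astrocyte genes became 1, Serpina3n, with no filter or no trend, and 0 to 3 without each array in turn. Of the other enteric glia genes 1 was called with array quality weights, Kcna1, and 1 with the local-pooled-error test, Mal. That test takes group medians and a spread pooled over features of like signal. Mal varied widely within both groups, at 13.26 and 11.55 in Control and 14.32, 11.62 and 11.65 in NT-3N. Its groups overlapped, with a limma log2 difference of 0.13. The filament, ligand and neuron lists had 0 calls in all 16 alternatives. The log2 difference of Gfap was 1.42 with normexp, 2.09 with the mean of probes and 1.74 to 1.94 without each array in turn. Gfap minus the mean of the other markers was 1.46 and 2.13 under the first pair of these and 1.73 to 2.03 without each array in turn. The median of the other markers moved by less than the spread between arrays in every alternative, and ranged from -0.11 to -0.03. Normexp used median spot signals and an offset, which compresses dim signals, and the mean of probes brought in the second Gfap probe. The causes of these changes were not tested. Where 1 Control array was left out, the spread of the remaining Control was taken from NT-3N.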
